A study of Rattus norvegicus with 30 samples.

Results

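The comparison described here set hepatocytes held for 48 h in 20 µM chlorpromazine against vehicle cultures of the same time, 10 of the 30 arrays of the study. The arrays were chosen by dose and time in their titles, 5 for 20 µM and 5 for vehicle, and every probe set on them was considered. The cells were primary hepatocytes from male Sprague Dawley rats, bought frozen from a supplier, thawed onto collagen-coated plates and overlaid with Matrigel. On day 3 of culture they received chlorpromazine hydrochloride at 0.8 or 20 µM, or dimethyl sulfoxide at 1% as vehicle, and RNA was taken 24 or 48 h later. The titles of the treated cultures do not state how much dimethyl sulfoxide they held. No separate animals are named in the labels, which call the 5 wells of a group independent cultures, so p-values measure the spread between cultures. All 30 arrays in 6 groups shared 1 estimate of the spread, among them a 24 h vehicle array whose title gives 2 h and whose time entry gives 24 h.

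Chlorpromazine is a phenothiazine antipsychotic drug that blocks dopamine and other amine receptors in the brain. It is a cationic amphiphilic compound, a class known to collect in acidic lysosomes and to slow the breakdown of phospholipids there. In the liver it is known for cholestatic injury, in which bile acids, made from cholesterol in hepatocytes and exported by them, no longer leave the cell normally. Hepatocytes also oxidise fatty acids, break down amino acids, clear drugs and secrete most plasma proteins, and they lose many of these functions as they dedifferentiate in culture.

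At 20 µM many transcripts of amino acid and fatty acid breakdown, of peroxisomes and of secreted plasma proteins fell, and many transcripts of lysosomes and of ribosomes and their assembly rose. Among 11503 tested genes there were 3856 that changed (33.5%), with 2223 higher (19.3%) and 1633 lower (14.2%). A gene changed where limma's adjusted p was under 0.05. The changes were mostly small, with a median log2 rise of 0.38 among the higher genes and a median of -0.48 among the lower ones. Of all tested genes 3.1% changed 2-fold or more, 129 of them higher (1.12%) and 228 lower (1.98%), and 9 higher and 30 lower genes changed 4-fold or more. Counted over all 21226 kept probe sets, 26.9% changed, 14.4% higher and 12.4% lower, 2.82% by 2-fold or more, and 20.5% had arrays that did not overlap. The 20 µM and the vehicle arrays did not overlap for 25.9% of the tested genes.

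**Figure D1:**
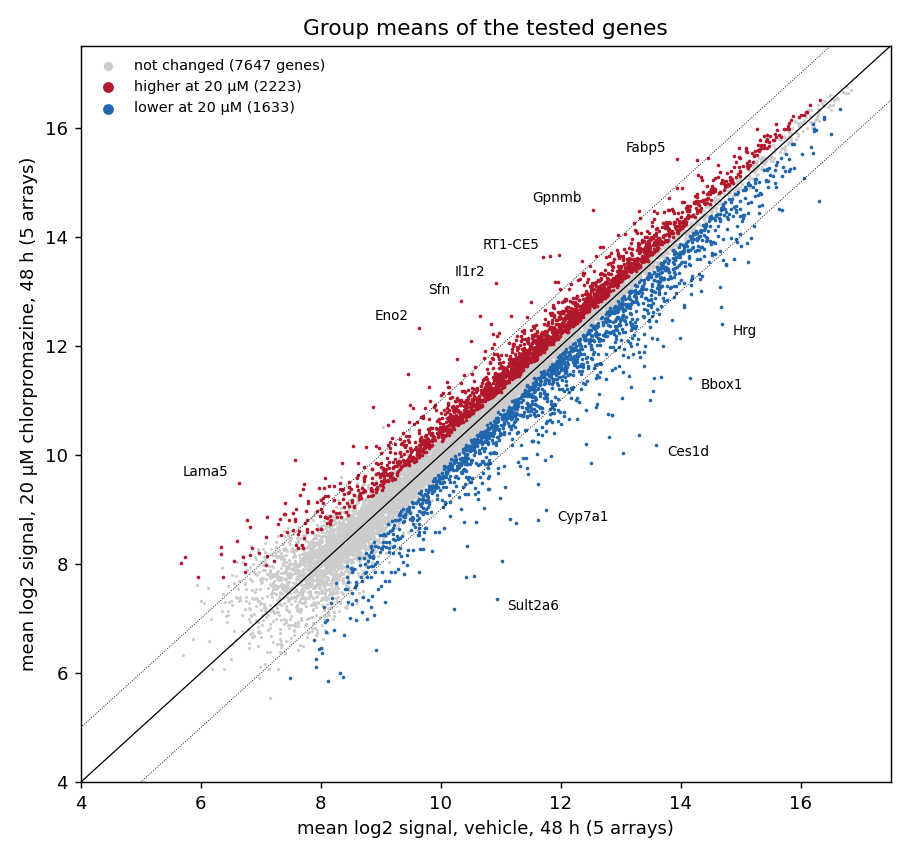
Mean log2 signal of each tested gene in the 5 arrays at 20 µM (vertical) against the 5 vehicle arrays (horizontal) at 48 h. Red points are the 2223 genes called higher, blue points the 1633 called lower, the solid line marks equal means and the dotted lines a 2-fold change. The points far below the line reach further from it than those above.

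All values below are log2 signals or their differences, given as 20 µM minus vehicle ± SE with 5 arrays per group, a number that sets how precise they are. The first principal component of the 10 arrays held 27.3% of the variance and placed the 20 µM arrays between 28.6 and 37.7 and the vehicle arrays between -36.7 and -27.2. Replicate 5 of 20 µM had the value of 37.7. The call rate followed brightness: 8.87% of the dimmest 25% of genes changed and 61.5% of the brightest 25%, with median SEs of 0.3 and 0.06. Defining hepatocyte markers were bright in both groups, with 3 of 9 measured markers lower, 0 higher and a median of -0.09. Their summed signal was 554122 to 688439 on the 20 µM arrays and 594040 to 734719 on the vehicle arrays. RNA came from whole wells, so fewer cells of a type and less RNA per cell cannot be told apart.

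The 8 largest rises ran from 1.92 to 2.83. Eno2, the enolase of glycolysis that neurons use, had log2 signals of 12.29, 12.13, 12.23, 12.28 and 12.74 at 20 µM, against 9.50, 9.89, 9.48, 9.21 and 10.14 in vehicle. Sfn, or stratifin, a p53 target that holds cells before mitosis, had 12.60, 12.81, 12.92, 12.86 and 12.91 at 20 µM, against 10.57, 10.31, 10.25, 10.42 and 10.16 in vehicle. In both genes the lowest 20 µM array lay more than 1 log2 unit above the highest vehicle array. Il1r2, a decoy receptor that binds interleukin-1 without signalling, had 13.08, 13.12, 13.09, 13.01 and 13.44 at 20 µM, against 10.86, 10.73, 11.12, 10.57 and 11.33 in vehicle. Hamp, the iron hormone hepcidin, had 13.41, 13.70, 13.68, 13.26 and 14.07 at 20 µM, against 11.88, 11.39, 11.78, 11.73 and 11.77 in vehicle. Replicate 5 of 20 µM was the highest of its group for Eno2, Il1r2 and Hamp, and the groups did not overlap for any of them. The fitted changes were 2.69 ± 0.17 for Eno2 (6.46-fold, adjusted p = 2.91e-14), 2.48 ± 0.11 for Sfn (adjusted p = 5.97e-18), 2.22 ± 0.13 for Il1r2 (adjusted p = 1.39e-14) and 1.92 ± 0.25 for Hamp (adjusted p = 2.21e-07).

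Lysosomal and membrane genes were also among the leading rises. Rragd, a Rag GTPase that links lysosomal nutrients to the growth kinase mTORC1, had 11.37, 11.39, 11.52, 11.45 and 11.68 at 20 µM, against 9.20, 9.61, 9.49, 9.39 and 9.61 in vehicle. Gpnmb, a glycoprotein of lysosomal and melanosomal membranes, had 14.47, 14.33, 14.41, 14.64 and 14.66 at 20 µM, against 12.53, 12.42, 12.53, 12.49 and 12.72 in vehicle. Both were apart in every array, at 2.02 ± 0.12 for Rragd (adjusted p = 7.63e-15) and 1.96 ± 0.10 for Gpnmb (adjusted p = 3.47e-16). Zdhhc18, a palmitoyltransferase, had 10.65, 10.79, 10.82, 10.98 and 11.13 at 20 µM, against 9.37, 9.44, 9.09, 7.60 and 8.89 in vehicle (1.99 ± 0.22, adjusted p = 1.03e-08). Lama5, a laminin chain of basement membranes, had 9.69, 9.27, 9.24, 9.65 and 9.56 at 20 µM, against 6.73, 6.80, 6.83, 6.25 and 6.63 in vehicle (2.83 ± 0.54, adjusted p = 0.000107). These values of Zdhhc18 and Lama5 were not shared by their other kept probe sets, which were not called and stood at -0.60 and -0.05, and Lama5 was dim in vehicle, dim meaning a lower group mean under 8.09.

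The other 12 of the 20 largest rises lay between 1.47 and 1.88. They included Dnase2b, an acid DNase (1.68 ± 0.10), Naaa, a lysosomal amidase of fatty acid ethanolamides that was dim in vehicle (1.6 ± 0.41), Ampd3, an AMP deaminase (1.58 ± 0.13), and Fabp5, an epidermal fatty acid carrier (1.47 ± 0.07). Casp4, an inflammatory caspase, rose by 1.55 ± 0.08, and its arrays ran from 12.24 to 12.58 at 20 µM and from 10.62 to 11.02 in vehicle. Gmnn, geminin, which restrains DNA replication licensing, rose by 1.63 ± 0.40, and its vehicle arrays were spread from 6.62 to 9.74. The remaining genes were Tsx, RT1-CE5, Pla2r1, Rab4b, Mapk4 and Rsad2. Mapk4, an atypical MAP kinase, stood at 1.5 ± 0.46, and without replicate 4 of vehicle its change was 1.09 and its call was lost (adjusted p = 0.0751). Pla2r1, Rab4b and Mapk4 were dim in vehicle. Left out of these 20 were 8 genes with rises as large as the 20th whose brighter group mean did not exceed 8.69, 7 whose arrays overlapped and 1 known by a locus number.

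The 8 largest falls, from -3.58 to -2.77, included enzymes that hydrolyse, reduce or conjugate drugs and steroids. Ces1d, a carboxylesterase of liver microsomes, had 10.19, 10.28, 10.31, 10.05 and 10.06 at 20 µM, against 13.58, 13.82, 13.51, 13.62 and 13.44 in vehicle. Akr1c1, an aldo-keto reductase, had 10.27, 10.05, 9.79, 10.12 and 9.95 at 20 µM, against 12.99, 13.22, 13.10, 13.06 and 12.84 in vehicle. The groups lay more than 2 log2 units apart in both, with changes of -3.41 ± 0.16 for Ces1d (10.7-fold, adjusted p = 3.74e-17) and -3.01 ± 0.15 for Akr1c1 (adjusted p = 1.12e-16). Sult2a6, a hydroxysteroid sulfotransferase, had 7.56, 7.47, 7.48, 6.67 and 7.58 at 20 µM, against 10.86, 10.83, 11.12, 11.15 and 10.71 in vehicle (-3.58 ± 0.20, adjusted p = 3.94e-15). Dhrs7l1, a short-chain dehydrogenase, had 7.79, 8.10, 8.34, 7.55 and 8.50 at 20 µM, against 10.71, 11.22, 11.08, 11.04 and 11.05 in vehicle (-2.96 ± 0.14, adjusted p = 8.68e-17). Sult2a6 and Dhrs7l1 were dim at 20 µM, so that their folds rest on signals near the lower end of the arrays.

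The others of these 8 were Cyp4a1, Otc, Cyp2c12 and Olr59. Cyp4a1, a fatty acid omega-hydroxylase, had 10.68, 10.34, 10.34, 10.54 and 9.94 at 20 µM, against 13.41, 13.34, 13.31, 13.35 and 13.11 in vehicle (-2.93 ± 0.15, adjusted p = 5.04e-16). Otc, which joins ornithine and carbamoyl phosphate in the urea cycle, had 9.41, 9.14, 9.12, 9.33 and 7.07 at 20 µM, against 11.62, 11.67, 11.51, 11.77 and 11.57 in vehicle (-2.82 ± 0.25, adjusted p = 1.24e-10). Replicate 5 of 20 µM lay below the other 4 for Otc, and without it the change was -2.38. Cyp2c12, a P450 that in rats is known as female-specific, had 8.36, 8.81, 8.60, 5.04 and 8.13 at 20 µM, against 10.63, 10.48, 10.34, 10.94 and 10.39 in vehicle (-2.77 ± 0.41, adjusted p = 2.55e-06). Olr59, named as an olfactory receptor, had 7.82, 6.45, 6.51, 8.83 and 6.24 at 20 µM, against 10.48, 10.59, 10.36, 10.28 and 9.41 in vehicle (-3.05 ± 0.36, adjusted p = 4.61e-08). Both were dim at 20 µM, and the change of Cyp2c12 without replicate 4 of 20 µM was -2.08.

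The other 12 of the 20 largest falls lay between -2.77 and -2.24. They included Cyp7a1 and Cyp8b1 of bile acid synthesis, the bile acid importer Slc10a1, Bbox1, which makes carnitine, and Fabp1, the liver fatty acid carrier. Hrg, a plasma glycoprotein that binds heparin and plasminogen, ran from 12.21 to 12.53 at 20 µM and from 14.58 to 14.89 in vehicle. Klkb1, plasma prekallikrein, ran from 9.53 to 10.04 at 20 µM and from 12.13 to 12.76 in vehicle. Acsm3, a medium-chain acyl-CoA synthetase, and Sult1e1, an estrogen sulfotransferase, fell by 2.51 and by 2.33 on the log2 scale. AKR1C3l1, Lrtm2 and Cyp2e1 complete the set, AKR1C3l1 and Lrtm2 being dim at 20 µM, and 3 genes with falls as large as the 20th whose brighter group mean did not exceed 8.69 were left out.

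**Figure D2:**
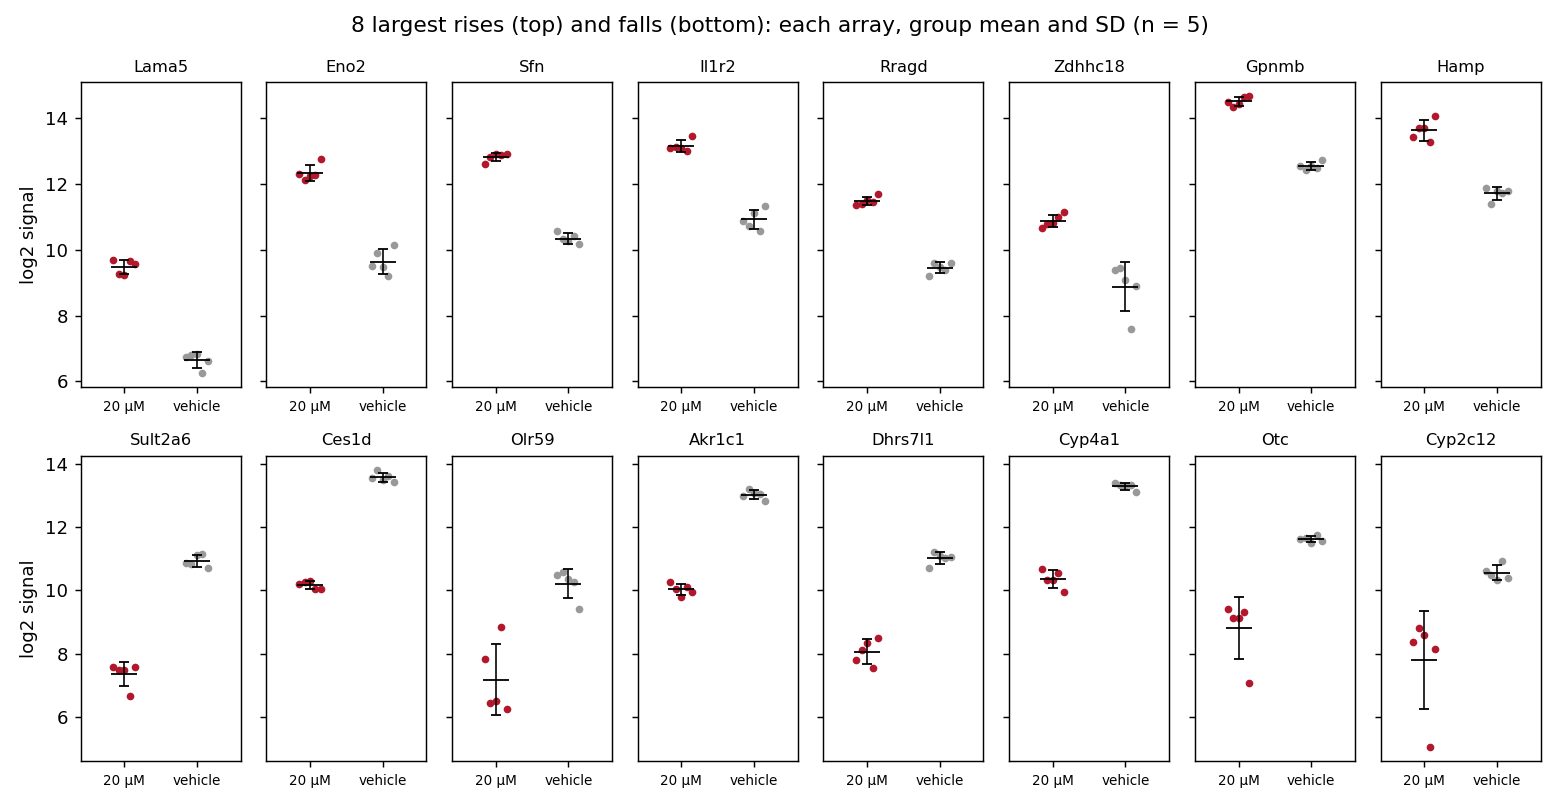
Log2 signal on each array at 48 h for the 8 largest rises (top row) and the 8 largest falls (bottom row), with 20 µM in red on the left and vehicle in grey on the right of each panel. Bars mark the mean and SD of 5 arrays. The genes were chosen for groups that do not overlap and for their size, and single arrays lie low for Zdhhc18 in vehicle and for Otc and Cyp2c12 at 20 µM.

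Genes were grouped into 70 lists of enzymes, organelles and pathways, of which 1632 genes were measured, and some genes are in several lists. Over these lists together 392 genes rose and 496 fell, and the median change was -0.03, against 0.04 over all tested genes. Members below the filter on dim signals were not tested. In the account that follows, a list is described by its counts, to be read against 19.3% higher and 14.2% lower among all tested genes. These shares depend on brightness, which the lists were not matched for. In the brightest 25% of genes 36.7% were higher and 24.8% lower, and in the dimmest 25% 4.28% and 4.59%.

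**Figure D3:**
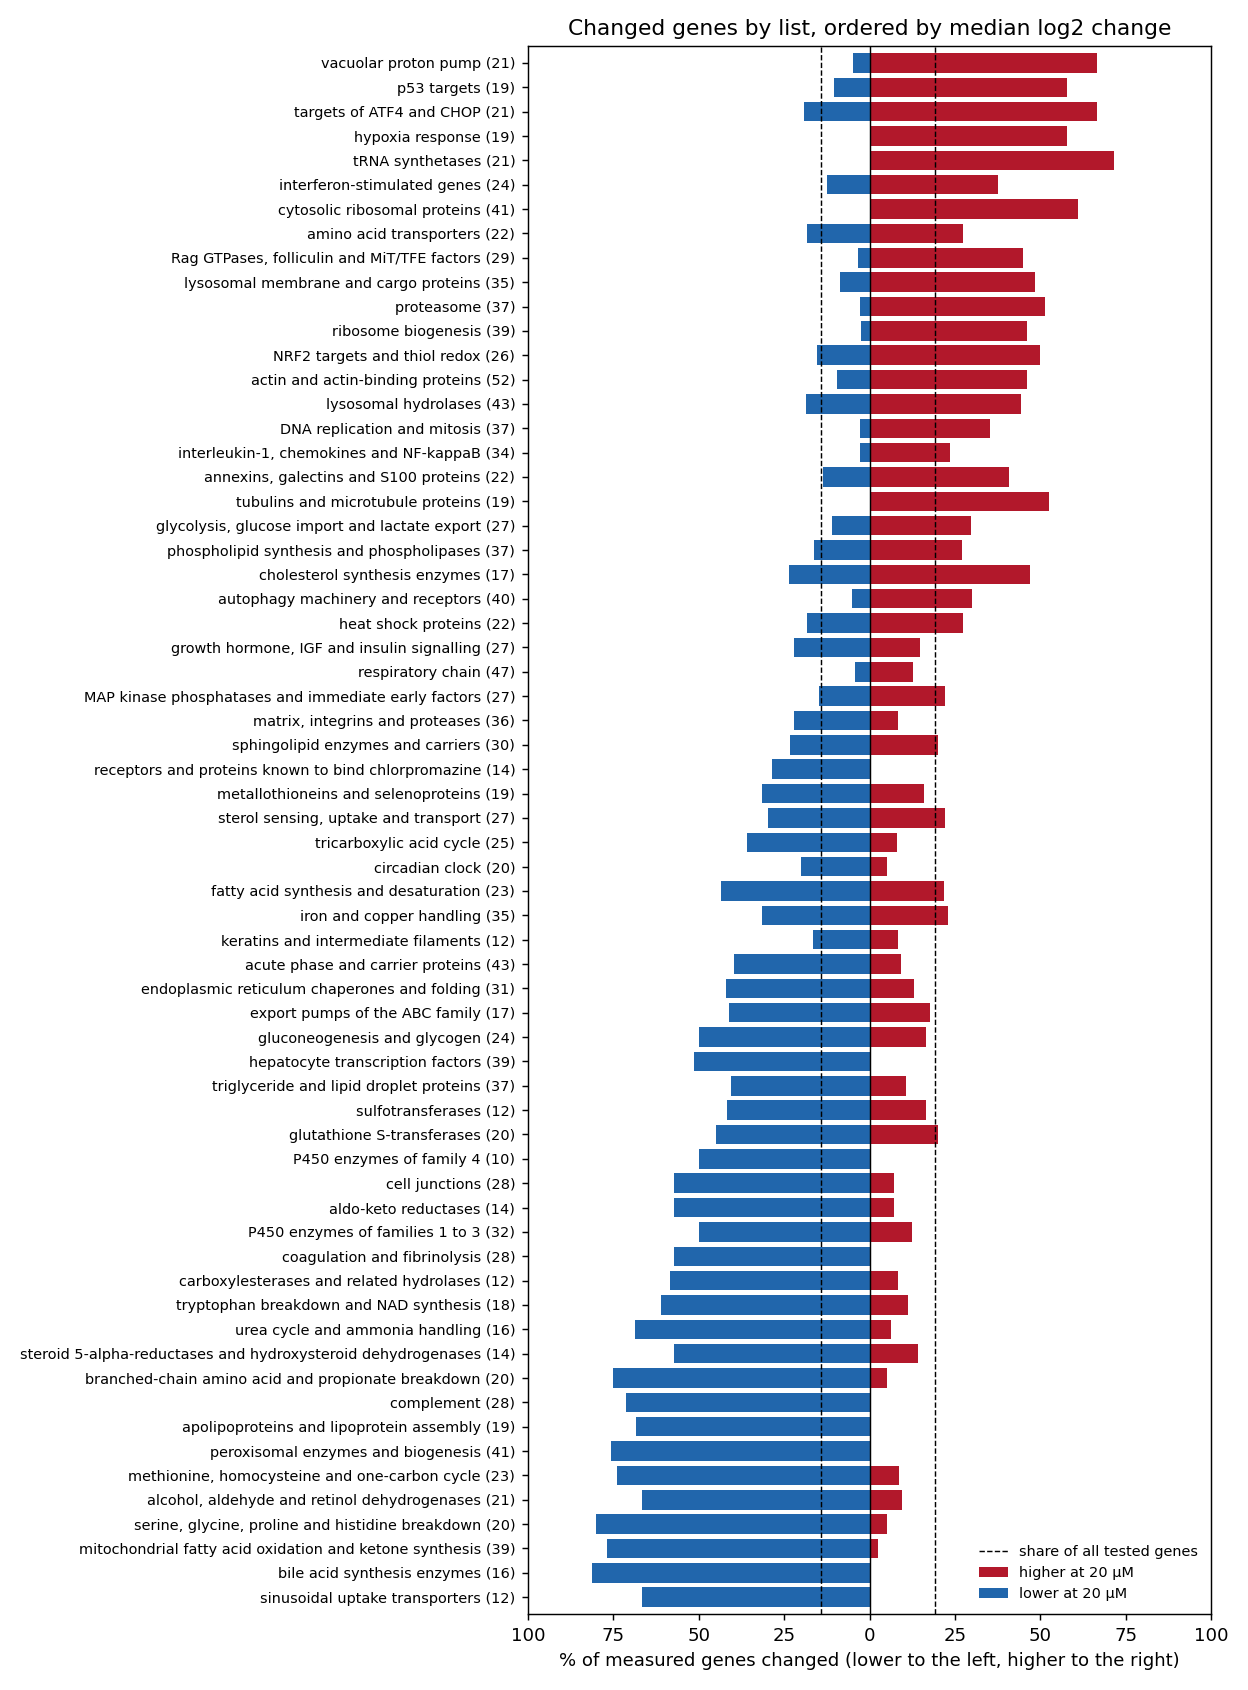
Percentage of measured genes called higher (red, to the right) and lower (blue, to the left) at 20 µM in each list with at least 10 measured genes, which number is given in parentheses. Dashed lines mark the shares among all 11503 tested genes. The vacuolar proton pump lies at the top of the order by median change, and bile acid synthesis and sinusoidal uptake lie at the bottom.

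Many lysosomal transcripts rose, and some fell. Across 4 lists for lysosomal hydrolases, lysosomal membrane proteins, the proton pump and the Rag GTPase machinery, 63 of 128 measured genes rose, 13 fell and the median was 0.22. The proton pump, which acidifies the lysosome, had 14 of 21 measured subunits higher and 1 lower, with a median of 0.42. Atp6v0b, a subunit of its membrane ring, had 13.60, 13.49, 13.57, 13.57 and 13.53 at 20 µM, against 12.63, 12.31, 12.21, 12.32 and 12.29 in vehicle (1.20 ± 0.08, adjusted p = 8.12e-14). Atp6v1d, of the central stalk, had 15.50, 15.35, 15.30, 15.52 and 15.41 at 20 µM, against 14.27, 14.27, 14.42, 14.14 and 14.24 in vehicle (1.15 ± 0.08, adjusted p = 3.60e-13). Arrays were apart for both, and higher subunits came from the membrane sector, the cytosolic sector and the accessory proteins, as in Atp6v1f (0.91 ± 0.05), Atp6ap1 (0.71) and Atp6v0a1 (0.53). The minor subunit form Atp6v0e2 fell (-0.50 ± 0.10), and the 6 measured subunits that were not called lay between -0.06 and 0.24.

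Among membrane and cargo proteins of the lysosome, 17 of 35 rose and 3 fell, with a median of 0.20. Cd63, a tetraspanin of late endosomes, had 14.93, 14.84, 14.84, 14.85 and 14.99 at 20 µM, against 14, 13.87, 13.92, 13.92 and 14.04 in vehicle (0.94 ± 0.08, adjusted p = 5.09e-11). Npc2, which carries cholesterol out of the lysosome, had 14.41, 14.41, 14.42, 14.54 and 14.60 at 20 µM, against 13.57, 13.58, 13.54, 13.54 and 13.59 in vehicle (0.91 ± 0.06, adjusted p = 7.44e-14). M6pr, a sorting receptor for hydrolases, rose by 0.58, Slc17a5, the sialic acid exporter, by 0.56, and the abundant membrane proteins Lamp1 and Lamp2 by 0.27 each. Groups did not overlap for these, but the other kept probe set of Lamp1 was not called. Cd68, a lysosomal glycoprotein that also serves as a macrophage marker, had 10.99, 11.27, 11.38, 11.12 and 11.45 at 20 µM, against 9.57, 9.74, 9.77, 9.83 and 10.10 in vehicle (1.44 ± 0.13, adjusted p = 8.20e-11). The other 9 measured markers of Kupffer cells, the resident macrophages of the liver, all lay below 0, among them Lyz2 (-0.79 ± 0.07) and Cd14 (-0.64 ± 0.05), which fell. The 10 markers together summed to 20098 to 22391 on the 20 µM arrays and 29072 to 31770 on the vehicle arrays, and their part in the lysosomal changes was not tested. With the arrays centred on their medians, 0 genes of the membrane and cargo list were called lower in place of 3.

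Hydrolases went both ways. Of 43 measured hydrolases 19 rose and 8 fell, with a median of 0.17. Manba, a beta-mannosidase, rose by 0.79 ± 0.08, the peptidase Tpp1 by 0.59 ± 0.10, and Asah1, acid ceramidase, by 0.54 ± 0.10. Scarb2, which carries glucocerebrosidase and is not itself a hydrolase, rose by 0.59. Ctse, cathepsin E, fell (-0.67 ± 0.11), and so did Hyal2, a hyaluronidase (-0.68 ± 0.18), and Man2b1, an alpha-mannosidase (-0.42). Smpd1, acid sphingomyelinase, a membrane-bound enzyme that cationic amphiphilic drugs are known to displace and inhibit, had 12.76, 12.75, 12.84, 12.71 and 12.70 at 20 µM, against 13.23, 12.80, 12.99, 12.99 and 12.99 in vehicle. It fell slightly (-0.24 ± 0.07, adjusted p = 0.00668), and 1 vehicle array lay within the range of the 20 µM arrays. Pla2g15, the lysosomal phospholipase A2 that such drugs are known to inhibit, was not called (0.50 ± 0.20, adjusted p = 0.0597) and was called with centred arrays (0.54, adjusted p = 0.0487). With centred arrays Smpd1 was not called (-0.20, adjusted p = 0.0731).

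In the Rag and MiT list, which holds the nutrient sensors of the lysosomal surface and the transcription factors they control, 13 of 29 measured genes rose and 1 fell. Lamtor3, a scaffold of the Ragulator complex, had 13.68, 13.71, 13.68, 13.77 and 13.70 at 20 µM, against 12.85, 12.93, 12.83, 12.69 and 12.93 in vehicle (0.86 ± 0.05, adjusted p = 1.79e-14). Flcn, folliculin, which acts on the Rag GTPases Rragc and Rragd, had 11.89, 11.91, 11.87, 12.09 and 12.09 at 20 µM, against 11.38, 11.42, 11.13, 11.13 and 11.40 in vehicle (0.68 ± 0.08, adjusted p = 1.92e-08). Nprl2 of the GATOR1 complex (0.57) and Rragc (0.39) rose too, and Sesn1, a sestrin and p53 target, fell (-0.80 ± 0.07). The transcription factors themselves were not called: Tfeb stood at -0.05 ± 0.16, Tfe3 at 0.19 ± 0.13 and Mitf at -0.16 ± 0.17, and Mtor, the kinase, at 0.11 ± 0.08.

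**Figure D4:**
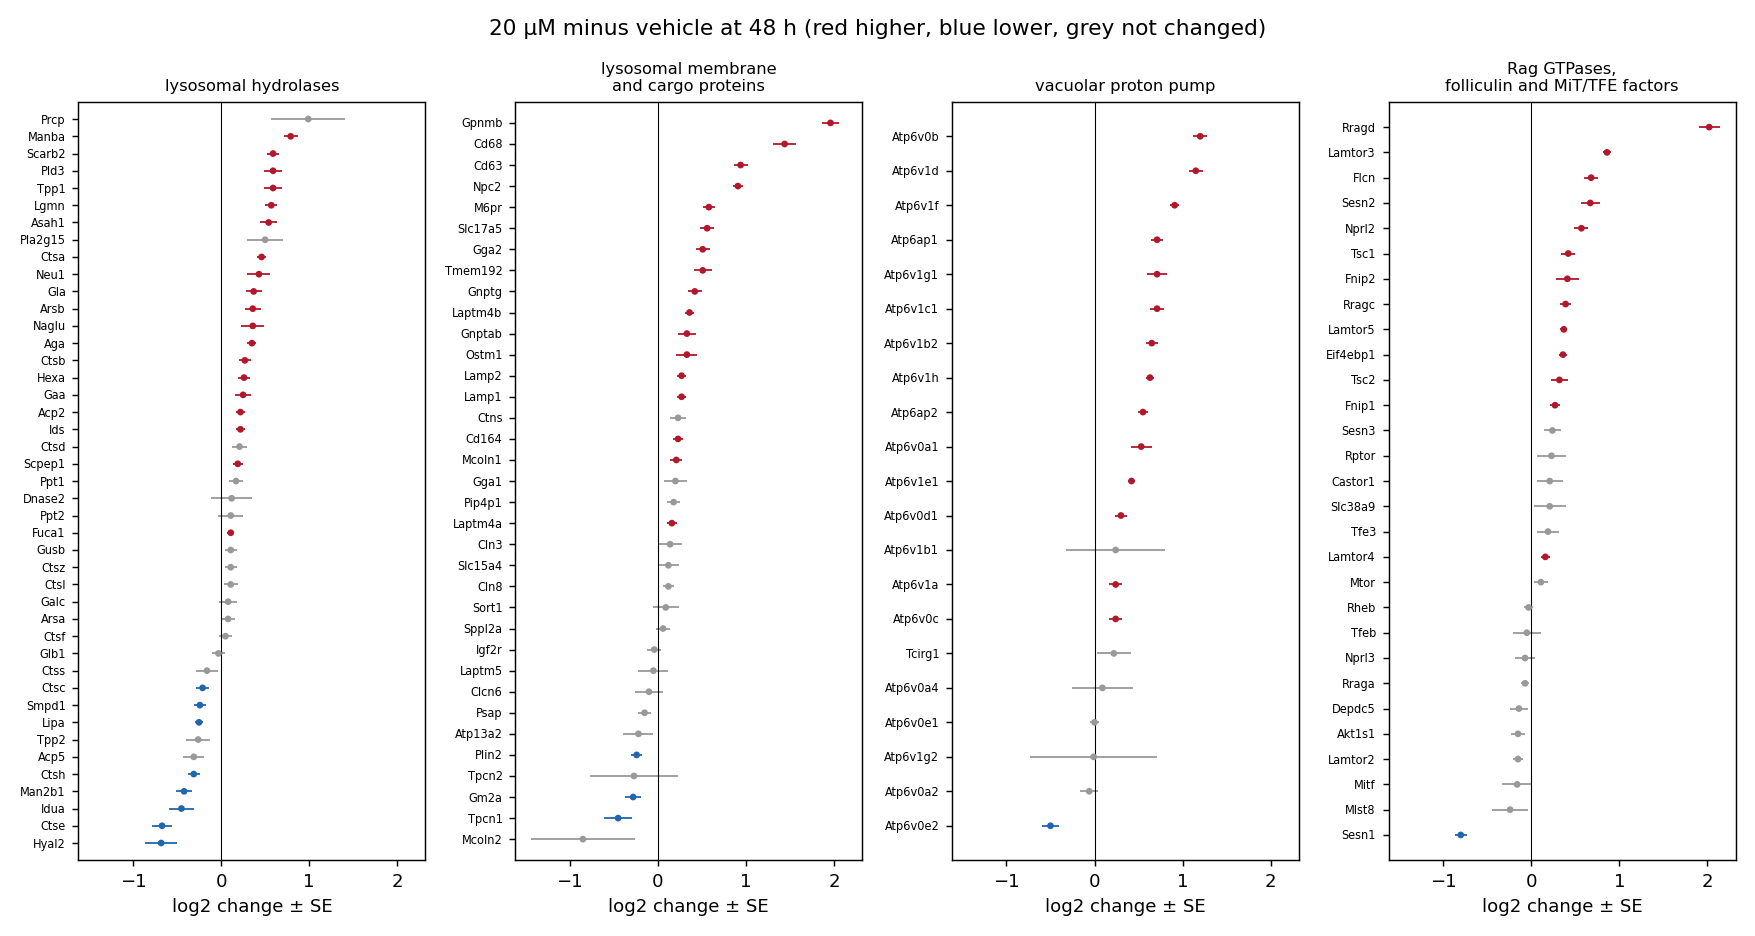
Log2 change at 20 µM minus vehicle, with SE, for every measured gene of 4 lists: lysosomal hydrolases, lysosomal membrane and cargo proteins, the vacuolar proton pump, and the Rag GTPase and MiT/TFE list. Red marks genes called higher, blue called lower and grey not called. In the proton pump list 14 of 21 points are red, while Tfeb, Tfe3 and Mitf are grey.

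MiT/TFE factors are known to bind the letters CACGTG, the core of the CLEAR element of lysosomal genes, and promoters of 4 genes that rose in these lists are shown because they hold these letters. Each runs from 250 bases before to 50 bases after the start site in RefSeq's rat assembly GRCr8, 5′ to 3′ on the gene's own strand, with CACGTG in capitals. Cd63 lies at chr7:1921894-1922193 on the plus strand, Gga2, an adaptor of hydrolase sorting, at chr1:186016533-186016832 on the minus strand, Gnptg, of the enzyme that tags hydrolases for the lysosome, at chr10:14761555-14761854 on the minus strand, and the proton pump subunit Atp6v0d1 at chr19:50357199-50357498 on the minus strand.
Cd63: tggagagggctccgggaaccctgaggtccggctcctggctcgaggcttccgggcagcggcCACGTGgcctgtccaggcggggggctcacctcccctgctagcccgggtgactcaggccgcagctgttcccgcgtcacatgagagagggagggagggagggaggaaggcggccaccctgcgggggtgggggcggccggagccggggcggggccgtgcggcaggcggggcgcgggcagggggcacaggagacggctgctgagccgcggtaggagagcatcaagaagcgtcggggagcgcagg
Gga2: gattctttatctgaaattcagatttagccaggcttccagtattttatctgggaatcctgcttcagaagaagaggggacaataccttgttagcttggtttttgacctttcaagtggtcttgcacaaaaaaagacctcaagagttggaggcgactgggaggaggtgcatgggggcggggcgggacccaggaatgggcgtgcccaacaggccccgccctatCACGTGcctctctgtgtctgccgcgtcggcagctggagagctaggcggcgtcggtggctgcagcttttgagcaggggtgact
Gnptg: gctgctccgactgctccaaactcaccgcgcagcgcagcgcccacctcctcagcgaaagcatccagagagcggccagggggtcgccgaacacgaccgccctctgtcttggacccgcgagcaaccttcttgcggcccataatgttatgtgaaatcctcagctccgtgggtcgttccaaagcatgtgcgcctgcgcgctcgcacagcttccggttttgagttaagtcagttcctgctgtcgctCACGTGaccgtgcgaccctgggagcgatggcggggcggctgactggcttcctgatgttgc
Atp6v0d1: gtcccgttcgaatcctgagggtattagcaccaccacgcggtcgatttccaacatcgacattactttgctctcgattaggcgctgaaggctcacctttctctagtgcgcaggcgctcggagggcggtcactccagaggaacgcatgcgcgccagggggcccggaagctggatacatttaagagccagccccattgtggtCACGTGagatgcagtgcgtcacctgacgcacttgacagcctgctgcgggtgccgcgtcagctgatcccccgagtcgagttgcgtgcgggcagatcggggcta
Counted from the start site, the letters begin at -190 in Cd63, at -32 in Gga2, at -10 in Gnptg and at -52 in Atp6v0d1. Gga2 had 11.87, 11.93, 11.90, 11.74 and 11.82 at 20 µM, against 11.33, 11.52, 11.24, 11.18 and 11.43 in vehicle (0.51 ± 0.08). Gnptg rose by 0.42 ± 0.08 and Atp6v0d1 by 0.30 ± 0.07, and the arrays were apart in all of these. CACGTG, which reads the same on both strands, is in 6.65% of the 27457 promoters of the table and in 906 of the 9597 tested genes found there (9.44%). It is in 12.2% of the promoters of higher genes and 7.9% of those of lower genes. Among measured genes of the 4 lists 23 of 105 promoters held it (21.9%), and among those that rose 9 of 49 (18.4%). Lamp1 held it at 5 places. A match is a description of these letters, and binding was not measured.

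Bile acid genes fell in synthesis and in uptake. Of 16 measured enzymes of bile acid synthesis 13 fell and 0 rose, with a median of -0.74. Slc27a5, which activates bile acids with coenzyme A, had 11.28, 11.11, 10.85, 11.30 and 10.68 at 20 µM, against 13, 13.40, 12.91, 13.02 and 12.83 in vehicle (-1.99 ± 0.15, adjusted p = 6.11e-12). Baat, which then joins them to glycine or taurine, had 11.71, 11.76, 11.66, 11.94 and 11.08 at 20 µM, against 13.36, 13.41, 13.42, 13.46 and 13.28 in vehicle (-1.76 ± 0.17, adjusted p = 1.08e-09). Groups were apart for both, and Akr1d1, the steroid reductase of the pathway, fell too (-1.52). Of 12 measured sinusoidal uptake carriers 8 fell and 0 rose (median -0.97), among them the organic anion carriers Slco1a4 (-1.84), Slco1b2 (-1.62) and Slco1a1 (-1.43). Export pumps fell more often than they rose, with 3 of 17 higher, 7 lower and a median of -0.14. Abcb1a, a drug pump of the canalicular membrane, rose (0.87 ± 0.15), and Abcb4, the phospholipid floppase (-0.86), and Abcg5 of sterol export (-0.77) fell. The bile acid receptor gene Nr1h4 fell (-0.57). Nr0b2, which it induces, was not called at -0.35, and leaving out 1 array at a time moved it between -0.83 and 0.11.

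Transcripts of drug and steroid metabolism fell more often than they rose across most enzyme families. Over 10 lists, 82 of 153 measured genes fell and 17 rose, with a median of -0.30. Among P450 enzymes of families 1 to 3, 16 of 32 fell and 4 rose. Cyp1a2, a target of the aryl hydrocarbon receptor that is known to metabolise chlorpromazine in humans, had 14.22, 13.89, 13.88, 14.23 and 13.96 at 20 µM, against 12.86, 12.93, 12.96, 13.04 and 13.04 in vehicle (1.07 ± 0.07, adjusted p = 1.46e-13). The largest falls besides Cyp2c12 were of Cyp2e1 (-2.48), Cyp3a18 (-2.13) and Cyp2a2 (-1.92). Of the CYP2D genes, whose human relative is the main enzyme of chlorpromazine hydroxylation, Cyp2d3 (-1.70) and Cyp2d2 (-0.98) fell. Of 20 measured glutathione S-transferases 9 fell and 4 rose, with Gstm7 (-1.86 ± 0.15) and Gstt3 (-1.68 ± 0.12) among the lower and Gstk1 (0.70 ± 0.07) and Gstp1 (0.66 ± 0.05) among the higher. Gstm5, of the same mu class as Gstm7, rose (0.38 ± 0.08). Gstm7 ran from 9.19 to 10.44 at 20 µM and from 11.56 to 11.99 in vehicle, and Gstp1 from 15.53 to 15.77 at 20 µM and from 14.93 to 15.02 in vehicle. P450 enzymes and transferases have close relatives, and probe sets of near-identical genes may share signal.

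In 3 lists of reductases and dehydrogenases more genes fell than rose. Of 14 measured aldo-keto reductases 8 fell and 1 rose. The rise was of Akr1b8, a reductase of aldehydes, which had 12.21, 12.33, 12.32, 11.92 and 12.36 at 20 µM, against 11.08, 10.65, 10.97, 11.11 and 11.08 in vehicle (1.25 ± 0.16, adjusted p = 1.19e-07). Of 21 alcohol, aldehyde and retinol dehydrogenases 14 fell and 2 rose, with a median of -0.52. Rdh7, a retinol dehydrogenase, had 13.83, 13.60, 13.69, 13.35 and 13.21 at 20 µM, against 15.03, 15.12, 15.08, 15.26 and 15.10 in vehicle (-1.58 ± 0.08, adjusted p = 3.11e-16). Dhrs3, which returns retinal to retinol, fell as well (-1.25 ± 0.08), while Rdh11 rose (0.43). Of 14 steroid reductases and hydroxysteroid dehydrogenases 8 fell and 2 rose, and Hsd3b5 fell by 1.32 on the log2 scale. Xdh, xanthine dehydrogenase, fell (-1.05 ± 0.09), and so did the flavin monooxygenases Fmo5 (-0.88) and Fmo1 (-0.80).

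Transcripts of fatty acid oxidation fell for both of its compartments. In mitochondria 30 of 39 measured genes of oxidation and ketone synthesis fell and 1 rose, with a median of -0.60. In peroxisomes, which shorten very long and branched chains, 31 of 41 fell and 0 rose, with a median of -0.48. Hao2, a peroxisomal hydroxy acid oxidase, had 10.85, 10.86, 10.82, 10.70 and 10.42 at 20 µM, against 12.90, 12.92, 12.68, 12.90 and 12.91 in vehicle (-2.13 ± 0.10, adjusted p = 8.84e-17). Ehhadh, the bifunctional enzyme of peroxisomal oxidation, had 9.40, 8.99, 8.88, 9.48 and 9.29 at 20 µM, against 10.84, 10.93, 11.22, 11.01 and 10.97 in vehicle (-1.79 ± 0.18, adjusted p = 1.04e-09). Both were apart by more than 1 log2 unit, and Hao1, a glycolate oxidase (-1.52), and the membrane protein Pxmp2 (-1.38) fell with them. The fall was not limited to enzymes, since the import and assembly genes Pex11a (-0.61), Pex13 (-0.49) and Pex19 (-0.41) fell, while Pex5, Pex7 and Pex3 were among 10 members not called.

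On the mitochondrial side Bdh1, which makes the ketone body hydroxybutyrate, had 9.85, 9.90, 9.53, 9.77 and 9.95 at 20 µM, against 10.96, 11.35, 11.51, 11.30 and 11.54 in vehicle (-1.53 ± 0.11, adjusted p = 1.00e-12). The dehydrogenase Acadm (-0.84 ± 0.09) and the thiolase Acaa2 (-1.18) fell. Cpt1a, the gate of fatty acid entry into mitochondria, fell by its brightest probe set (-0.80 ± 0.14), but its other kept probe set was at -0.01 and not called. Acsf2, an acyl-CoA synthetase, was the member that rose (0.76 ± 0.21). The respiratory chain, which takes up the electrons, did not move with them: of 47 measured genes 6 rose and 2 fell, with a median of 0.01, and with quantile normalization 8 were called lower. Ndufs4, a subunit of complex I, rose (0.60 ± 0.10). In the tricarboxylic acid cycle 9 of 25 fell and 2 rose, led by Idh2 (-0.66 ± 0.04), and with centred arrays 5 were lower.

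Genes of fat storage, transport and membrane lipids changed in both directions, where 19.3% of all tested genes were higher and 14.2% lower. Of 37 measured genes of triglycerides and lipid droplets 15 fell and 4 rose. Cd36, a fatty acid uptake receptor, had 10.69, 10.77, 10.94, 11.26 and 11.15 at 20 µM, against 12.36, 12.28, 12.25, 12.38 and 12.31 in vehicle (-1.35 ± 0.18, adjusted p = 5.28e-07). Hilpda, a droplet protein induced by hypoxia that inhibits lipolysis, rose (0.74 ± 0.12), and the droplet coat gene Plin2 fell (-0.24), a call lost with centred arrays (-0.20, adjusted p = 0.0922). The desaturase genes Fads1 (1.35 ± 0.14) and Scd2 (1.23 ± 0.11) rose, while Scd, another desaturase gene, fell (-0.59), as did Acaca (-1.17) and Acly (-0.74) of chain synthesis. The other kept probe sets of Scd2 were at 0.22 and 0.73 and not called. In sphingolipid metabolism 6 of 30 rose and 7 fell (4 with centred arrays), and B4galt5, which makes lactosylceramide, fell by its brightest probe set (-1.24 ± 0.12), its other kept one not being called. Of 37 genes of phospholipid synthesis and phospholipases 10 rose and 6 fell, with Pemt lower (-1.58). Pld3, a lysosomal member of the phospholipase D family by sequence, was higher (0.59).

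Amino acid breakdown genes fell in each of 6 lists more often than they rose. Together, 75 of 104 measured genes fell and 8 rose, with a median of -0.46. In the methionine and one-carbon cycle 17 of 23 fell and 2 rose. Bhmt, which remethylates homocysteine with betaine, had 14.90, 14.60, 14.64, 14.70 and 14.48 at 20 µM, against 16.25, 16.20, 16.35, 16.40 and 16.37 in vehicle (-1.65 ± 0.08, adjusted p = 4.47e-17). Cth, which makes cysteine from cystathionine and is otherwise known as an ATF4 target, had 13.55, 13.5, 13.53, 13.42 and 13.43 at 20 µM, against 14.72, 14.70, 14.76, 14.85 and 14.78 in vehicle (-1.28 ± 0.08, adjusted p = 6.58e-14). Groups were apart by more than 1 log2 unit in both. For tryptophan, Kynu, kynureninase, had 11.52, 11.36, 11.47, 11.41 and 11.21 at 20 µM, against 12.75, 12.88, 12.63, 12.85 and 12.71 in vehicle (-1.37 ± 0.09). For tyrosine, Hgd, homogentisate dioxygenase, had 10.32, 10.27, 10.32, 10.16 and 10.14 at 20 µM, against 11.66, 11.56, 11.67, 11.70 and 11.54 in vehicle (-1.38 ± 0.09). Both of these fell past the spread of their arrays (adjusted p = 3.37e-14 for Kynu and 1.39e-13 for Hgd).

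Glycine and branched-chain genes fell alike in count, with 16 of 20 lower in the list of serine, glycine, proline and histidine and 15 of 20 in the branched-chain list, each with 1 gene higher. Gldc, the decarboxylase of the glycine cleavage system, fell by 1.18 on the log2 scale (SE 0.10), and its other kept probe sets were at -1.26 and -1.30. Sds, serine dehydratase, fell (-2.32 ± 0.49) but was dim. In the urea cycle list 11 of 16 fell, with Car5a, the mitochondrial carbonic anhydrase, at -1.30 ± 0.12, and Asl, argininosuccinate lyase, was the member that rose (0.26 ± 0.07). Other members that rose were Nampt, which salvages NAD (0.73 ± 0.10), Gch1, which starts tetrahydrobiopterin synthesis (0.67), and Gcat, which makes glycine from threonine (0.88 ± 0.13). Transcripts of glucose production also fell more often than they rose: of 24 genes of gluconeogenesis and glycogen 12 fell and 4 rose, with Gys2 at -1.23 ± 0.06 and Pck1 at -1.19 ± 0.20. Amino acid transporters had 6 of 22 higher and 4 lower. Slc6a6, the taurine carrier (0.96), and Slc3a2, the shared heavy chain (0.77), rose, and Slc6a13, a carrier of taurine and GABA, fell (-1.20 ± 0.14).

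Transcripts for making proteins rose by small amounts. Over the ribosomal protein, ribosome assembly and tRNA synthetase lists, 58 of 101 measured genes rose and 1 fell, with a median of 0.22. Of 41 measured cytosolic ribosomal proteins, from a list of 76, 25 rose and 0 fell, the largest by 0.48. Rps3, of the small subunit, had 15.97, 15.81, 15.81, 15.88 and 15.80 at 20 µM, against 15.40, 15.31, 15.40, 15.36 and 15.46 in vehicle (0.47 ± 0.07, adjusted p = 3.13e-06). Rpl35a, of the large subunit, had 16.25, 15.98, 16, 16.11 and 16.02 at 20 µM, against 15.66, 15.41, 15.59, 15.62 and 15.67 in vehicle (0.48 ± 0.07, adjusted p = 2.31e-06). Arrays were apart in both although the change was under 1.5-fold. These genes are among the brightest on the array, where the SE was smallest, and they have many pseudogenes, so their probe sets may not be specific. Assembly factors had 18 of 39 higher and 1 lower, with nucleolin, Ncl, at 15.14, 15.06, 15.04, 15.07 and 15.13 at 20 µM, against 14.68, 14.53, 14.45, 14.61 and 14.61 in vehicle (0.51 ± 0.04). The 1 that fell was Ubtf, a factor of ribosomal DNA transcription (-0.53 ± 0.10), whose other kept probe sets were at -0.04 and -0.29 and not called, nor was the mean of the 3 (-0.29, adjusted p = 0.0694). Of 21 tRNA synthetases and partners 15 rose and 0 fell, with Sars1 at 0.92 ± 0.11, Wars1 at 0.61 and Farsa at 0.56.

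Some genes of antigen presentation, which had no list of their own, and some interferon-stimulated genes rose. RT1-CE5, a class I histocompatibility gene, had 13.62, 13.60, 13.51, 13.76 and 13.75 at 20 µM, against 11.78, 11.90, 11.78, 11.69 and 12 in vehicle (1.82 ± 0.10, adjusted p = 2.00e-15). Its other 3 kept probe sets were called higher too, at 1.19, 1.59 and 1.72, though class I genes of the rat are many and alike and their signals may be shared. Proteasome subunits had 19 of 37 higher and 1 lower, and the 3 largest rises were of the immunoproteasome subunits Psmb9 (0.62 ± 0.09), Psmb8 (0.53 ± 0.10) and Psmb10 (0.47 ± 0.12). Psmb9 had 12.44, 12.40, 12.52, 12.62 and 12.43 at 20 µM, against 11.89, 11.88, 12.01, 11.79 and 11.76 in vehicle, while the arrays of Psmb10 overlapped. Tap1, the peptide pump that loads class I molecules, rose by 0.56 ± 0.11. Among 24 interferon-stimulated genes 9 rose and 3 fell. Rsad2, viperin, had 11.67, 11.48, 11.77, 11.56 and 12.29 at 20 µM, against 10.64, 9.95, 10.55, 10.01 and 10.22 in vehicle (1.48 ± 0.23, adjusted p = 5.53e-06). Isg15 rose by 0.91 ± 0.23 and the dim gene Gbp2 by 1.20 ± 0.23, Oas1a fell (-0.55 ± 0.14), and Mx2, Ifit1, Ifit2 and Ifit3 were not called.

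Genes for secreted plasma proteins fell, and several abundant ones were not called. Over the apolipoprotein, coagulation and complement lists 48 of 74 measured genes fell and 0 rose, with a median of -0.40. Complement had 20 of 28 lower. C5, the component cleaved to start the lytic pathway, had 11.25, 11.24, 11, 11.21 and 11.05 at 20 µM, against 12.13, 12.30, 12.03, 11.95 and 12.32 in vehicle (-1.0 ± 0.07, adjusted p = 9.74e-13). C4bpb (-1.27 ± 0.12) and C4bpa (-1.14), the chains of the C4-binding protein, and C8b (-0.99) fell, and C3 was not called (-0.13 ± 0.05, adjusted p = 0.0719), although a fit of the 10 arrays alone called it (adjusted p = 0.0372). Coagulation had 16 of 28 lower, among them Serpind1, heparin cofactor II (-1.12 ± 0.16), and Vkorc1, the vitamin K reductase on which several clotting factors depend. Vkorc1 had 12.91, 12.83, 12.87, 12.80 and 12.81 at 20 µM, against 13.82, 13.90, 13.63, 13.79 and 13.70 in vehicle (-0.93 ± 0.05, adjusted p = 1.03e-14). Fibrinogen's Fga was not called (-0.14 ± 0.08), although its other kept probe set fell (-0.55) and quantile normalization called it lower (-0.20, adjusted p = 0.00101).

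Apolipoproteins had 13 of 19 lower. Apon had 12.12, 12.09, 12.12, 11.94 and 11.70 at 20 µM, against 13.54, 13.79, 13.78, 13.76 and 13.63 in vehicle (-1.71 ± 0.08, adjusted p = 8.84e-17). Lcat, which esterifies cholesterol on lipoproteins, had 11.65, 11.59, 11.57, 11.40 and 11.38 at 20 µM, against 12.65, 12.63, 12.68, 12.68 and 12.60 in vehicle (-1.13 ± 0.06, adjusted p = 1.30e-16). Mttp, which loads lipid onto apolipoprotein B, fell as well (-0.78), whereas Apoa1 stood at -0.09 ± 0.10 and was not called, although quantile normalization called it lower (-0.12, adjusted p = 0.0194). Acute phase and carrier proteins had 17 of 43 lower and 4 higher. Lbp, which binds bacterial lipopolysaccharide, had 14.29, 14.23, 14.29, 14.41 and 14.47 at 20 µM, against 13.37, 13.25, 13.13, 13.41 and 13.48 in vehicle (1.01 ± 0.07, adjusted p = 1.01e-13). Crp, a pentraxin, fell (-0.87 ± 0.14), as did Azgp1, a secreted glycoprotein (-1.29 ± 0.07), and the growth factor gene Igf1 (-0.74 ± 0.05). The acute phase genes Orm1, Hp and Lcn2 were not called. Their vehicle means lay between 16.16 and 16.62, and whether probe sets this bright show a change in full was not tested.

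Iron and copper genes changed in both directions around the rise of Hamp. Of 35 measured, 8 rose and 11 fell. Slc40a1, ferroportin, the iron exporter that hepcidin protein removes from the cell surface, fell slightly (-0.25 ± 0.06), and so did Tfr2 (-0.52 ± 0.11) of iron sensing. The other kept probe sets of Slc40a1 were not called, and with centred arrays it was not called either (-0.21, adjusted p = 0.073). Slc30a10, a manganese exporter, had 9.62, 9.84, 9.85, 9.78 and 9.72 at 20 µM, against 10.77, 10.73, 10.77, 10.82 and 10.87 in vehicle (-1.03 ± 0.09, adjusted p = 6.61e-11). Id1 (0.05 ± 0.17) and Smad7 (0.20 ± 0.22), which like Hamp are known targets of bone morphogenetic protein signalling, were not called, and neither was Bmp6 (-0.57 ± 0.63).

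Several lists of stress genes had more rises than falls, as did all tested genes (19.3% higher and 14.2% lower). Chaperones of the endoplasmic reticulum had more falls, and so did metallothioneins and selenoproteins, with 3 of 19 higher and 6 lower. Of 21 targets of ATF4 and CHOP 14 rose and 4 fell (1 with centred arrays), with Atf3 at 1.14 and Gdf15, a stress cytokine, at 0.97. Of 26 NRF2 targets 13 rose and 4 fell (2 with centred arrays). Of 19 p53 targets 11 rose and 2 fell, and Sfn was the largest. Of 19 hypoxia genes 11 rose and 0 fell. Ndrg1 had 13.23, 13.22, 13.39, 13.20 and 13.63 at 20 µM, against 12.24, 12.34, 12.35, 12.18 and 12.80 in vehicle (0.95 ± 0.12), and Adm, adrenomedullin, rose by 0.76 ± 0.09. The glycolytic gene Pfkp (0.90) rose as well, but Vegfa and Car9 were not called. Chaperones of the endoplasmic reticulum had 13 of 31 lower and 4 higher, with Calr, calreticulin, at -0.78 ± 0.14. Heat shock proteins had 6 of 22 higher and 4 lower, with a median of 0.04. Hsph1 (0.57 ± 0.10) and Hspb8 (0.49 ± 0.05) were among the higher. Cryab, a small heat shock protein, had 12.26, 12.11, 12.12, 12.19 and 12.02 at 20 µM, against 13.21, 13.15, 13.18, 13.17 and 13.26 in vehicle (-1.05 ± 0.06, adjusted p = 8.20e-15). The immediate early gene Egr2 rose (1.11 ± 0.15) by its brightest probe set, its other kept one at 0.79 not being called, and Jun fell (-0.60 ± 0.06).

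Genes of cell shape and adhesion changed in a pattern split by structure. Actin and actin-binding genes had 24 of 52 higher and 5 lower, and tubulins and microtubule proteins 10 of 19 higher and 0 lower. Lcp1, plastin 2, had 10.46, 10.91, 10.66, 10.46 and 10.80 at 20 µM, against 9.56, 9.81, 10.05, 9.64 and 10.01 in vehicle (0.84 ± 0.14), and Arpc1b of the Arp2/3 complex rose by 0.78. Lcp1 and the dim gene Coro1a (2.35 ± 0.62) are best known from white blood cells, whose other markers are given with Cd68; their part in these rises was not tested. Stmn1, stathmin, which takes microtubules apart, rose by 0.97 ± 0.18. Cell junctions went the other way, with 16 of 28 lower and 2 higher. Cdh1, E-cadherin, had 12.26, 12.33, 12.30, 12.36 and 12.24 at 20 µM, against 13.24, 13.23, 13.12, 13.16 and 13.11 in vehicle (-0.87 ± 0.05, adjusted p = 9.36e-15). Cldn1, a tight junction claudin, had 11.80, 12.09, 11.80, 12.17 and 11.89 at 20 µM, against 12.92, 13.07, 13.11, 13.09 and 13.10 in vehicle (-1.11 ± 0.07, adjusted p = 2.39e-14). Gjb1, the main gap junction protein of hepatocytes, fell (-0.86 ± 0.07), and Dsp, desmoplakin, rose (0.56 ± 0.06). In the matrix list Lox, which crosslinks collagen, had 12.93, 12.88, 12.70, 12.46 and 12.61 at 20 µM, against 14.49, 14.56, 14.65, 14.64 and 15.03 in vehicle (-1.96 ± 0.10, adjusted p = 2.10e-16).

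Markers of the other cell types of the liver were not called by limma. These were 7 measured stellate cell and fibroblast markers, 5 endothelial markers, 2 cholangiocyte markers and 3 lymphocyte markers, of which 2 had an unadjusted p under 0.05. Summed signals of the stellate and fibroblast markers were 3988 to 4625 at 20 µM and 3896 to 4951 in vehicle, and those of the endothelial markers 1194 to 1739 at 20 µM and 1113 to 2044 in vehicle. Both pairs of ranges overlap.

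Transcription factors of hepatocyte identity fell or were not called. Of 39 measured factors 20 fell and 0 rose, with a median of -0.20. Foxa1, a pioneer factor of liver genes, had 8.05, 9.16, 8.68, 8.62 and 8.80 at 20 µM, against 10.12, 10.43, 10.08, 10.09 and 9.55 in vehicle (-1.39 ± 0.17, adjusted p = 9.51e-08). Nr1i3, the receptor CAR, which induces drug-metabolising enzymes, had 10.87, 10.90, 10.68, 10.79 and 10.70 at 20 µM, against 11.99, 12.08, 12.04, 11.89 and 11.96 in vehicle (-1.20 ± 0.08, adjusted p = 9.13e-14). Cebpa fell in its brightest probe set (-1.13 ± 0.11) and was called lower in 4 others too. Klf15, which drives amino acid breakdown, fell by 0.86 on the log2 scale. Hnf4a, the factor most closely tied to hepatocyte identity, was at 13.10, 13.15, 13.20, 13.18 and 12.97 at 20 µM, against 13.23, 12.97, 13.03, 13.16 and 13.05 in vehicle (0.03 ± 0.05, adjusted p = 0.741), and its groups overlapped. Of its other kept probe sets 1 was called lower (-0.42) and 1 was not called (-0.11), and the mean of all 3 was lower (-0.17, adjusted p = 0.045). Ppara, the receptor that induces fatty acid oxidation genes, was not called (0.05 ± 0.58). It was dim in both groups, with means of 6.98 at 20 µM and 6.93 in vehicle, and its SE would hide a sizeable change. Among growth hormone and growth factor genes the receptors Ghr (-0.76 ± 0.07) and Egfr (-0.75 ± 0.07) fell. The list of growth hormone, IGF and insulin signalling as a whole had 4 of 27 higher and 6 lower, with a median of 0.02.

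Of 27 listed genes for receptors and proteins that chlorpromazine is known to bind, 14 passed the filter on dim signals and 11 did not. Of the 14, 4 were lower and 0 higher, and with centred arrays 1 was lower. Drd2, the dopamine receptor that is the main target of antipsychotic drugs in the brain, stood at 0.28 ± 0.23 and Hrh1, a histamine receptor, at -0.07 ± 0.22, and neither was called. Levels of these genes lay near the dim end, between 7.91 and 9.52 at 20 µM for both.

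The same dose at 24 h was set against its own vehicle arrays, so that the times share no cultures. Of the 3856 genes that changed at 48 h, 3597 had the same sign at 24 h, and 1984 were called in the same direction there, which is 51.5% of the genes of 48 h and 77.7% of those of 24 h. Of all tested genes, 22.2% changed at 24 h in either direction. The difference of the effects between the times was called for 425 genes (3.69%), and 402 of these also changed at 48 h. Cd68 stood at 1.44 at 48 h and 0.10 at 24 h, a called difference (1.34, adjusted p = 1.45e-05). Gstk1 (0.70 and 0.09, difference adjusted p = 0.000489) and Cd36 (-1.35 and -0.21, difference adjusted p = 0.01) also differed. Ampd3 stood at 1.58 at 48 h and 1.6 at 24 h, and Nqo1, a quinone reductase of the NRF2 response, at 0.99 and 1.03. For these the difference was -0.03 and -0.05 and was not called.

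The 0.8 µM cultures of 48 h share their vehicle arrays with the 20 µM comparison, so their values are given side by side without a measure of agreement. At 0.8 µM 296 genes changed (2.57%). Il1r2 stood at 2.22 at 20 µM and 1.13 at 0.8 µM (adjusted p = 3.87e-06), Eno2 at 2.69 and 0.84 (adjusted p = 0.00419) and Cyp1a2 at 1.07 and 0.77 (adjusted p = 4.52e-08). Sult1e1 stood at -2.33 at 20 µM and -1.36 at 0.8 µM (adjusted p = 3.87e-06). All of these were called at both doses. Casp4 stood at 1.55 at 20 µM and 0.02 at 0.8 µM, Fabp5 at 1.47 and -0.06, and Gstm7 at -1.86 and 0.01, and none of them was called at 0.8 µM.

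**Figure D5:**
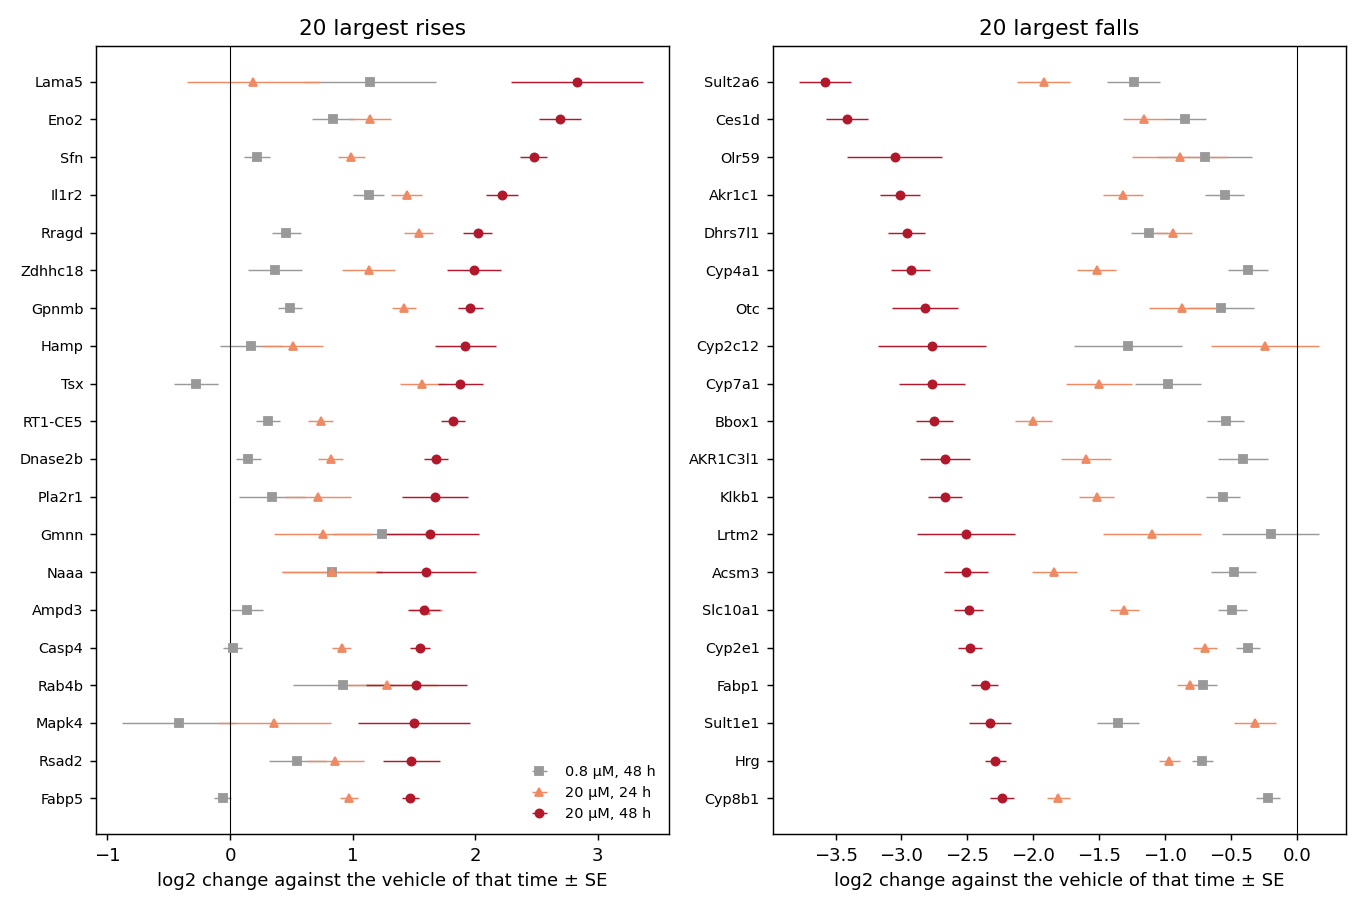
Log2 change with SE against the vehicle of the same time for the 20 largest rises (left) and the 20 largest falls (right) at 20 µM and 48 h (red circles), with 20 µM at 24 h (orange triangles) and 0.8 µM at 48 h (grey squares). Red circles lie furthest from 0 for 19 of the 20 rises, the exception being Ampd3, and for all 20 falls. They chose the genes, so their position is a description.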

How the data were processed

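RNA of 1 well was hybridised to each of the 30 rat arrays. MAS5 was the authors' summary method, per the submitters' processing notes, and its version is not given in the sources used here. The deposited table gives a linear intensity for each probe set, found here to be scaled to a trimmed mean of 1500.0 on every array. Groups came from the labels, 5 arrays in each of 6 groups. The serial numbers in the titles list the 6 groups in the same order for every replicate. The labels do not say whether arrays were processed in that order. If they were, the position of an array and its group cannot be told apart.

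Of 31099 probe sets, 57 were controls. Values under 16 were set to 16 before log2 was taken, and arrays were not normalized again. Kept were 21226 probe sets that passed their array's 40th percentile at least 5 times. They were fitted with limma 3.58.1 in R 4.3.3, with 6 group means over 30 arrays, a mean trend in eBayes, two-sided tests and Benjamini-Hochberg adjustment over all kept probe sets. A gene was its kept probe set, named with 1 symbol, of highest mean (11503 genes), and dim where its lower group mean lay under 8.09. Of 1563 other probe sets of changed genes 484 were called the same way, 34 the other way and 1045 not at all. Symbols came from the platform annotation.

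The comparison, its members and the gene lists were chosen with earlier results of these data known. Genes named in the text are the 20 largest rises and 20 largest falls whose arrays did not overlap and whose brighter group mean exceeded 8.69 (5 rises and 6 falls are dim in the other group), and up to 4 rises and 4 falls of each list, with a fixed panel of secreted and housekeeping genes. A further 52 were named after their values were seen. On simulated data for this comparison with 50 changed probe sets of each size, 8, 22, 35 and 50 were recovered at 1.25-, 1.5-, 2- and 4-fold, and 3 of 118 calls were false. The simulated signals were independent normal draws. Far fewer probe sets changed in them than the 5702 called in the data, which makes the adjusted threshold stricter. These recoveries therefore do not carry over to the data. Median signals of the 10 arrays were 385.8 to 448.8, and their number limits the precision. The alternatives tried were other floors, filters, normalizations and probe set rules, array weights, a replicate block, a fit of 10 arrays and leaving out each array. The numbers of the replicates were not used to pair arrays in the main fit. Over all kept probe sets, deviations of same-numbered arrays correlated at -0.018 to 0.033. Such a correlation cannot show pairing that is limited to fewer genes. Replicate 5 was the highest array of both groups for Eno2 and Il1r2.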

Additional observations from a re-analysis of the deposited data

Results flagged for a closer look

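Single arrays stood apart from the other 4 of their group in 10 of the 80 groups of the 40 largest changes. Chance gives about 1 in 20 for independent groups. These groups share the same 10 arrays, and their genes were chosen for size and lack of overlap, so that rate cannot be applied to them. At 20 µM these were Eno2 at 12.74, Il1r2 at 13.44, Ampd3 at 12.21 and Otc at 7.07 in replicate 5, and Sult2a6 at 6.67 and Cyp2c12 at 5.04 in replicate 4. In vehicle they were Olr59 at 9.41 and Sult1e1 at 10.82 in replicate 5, and Naaa at 5.62 and Cyp8b1 at 13.79 in replicate 4. All are log2 signals.

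The effect of 20 µM differed between 48 and 24 h for 26 of these 40 genes (limma, adjusted p under 0.05), with differences given as the log2 change at 48 h minus that at 24 h. Among the rises they were 1.55 for Eno2, 1.48 for Sfn, 1.41 for Hamp, 1.08 for RT1-CE5, 0.86 for Dnase2b, 0.79 for Il1r2, 0.64 for Casp4, 0.54 for Gpnmb and 0.50 for Fabp5. Among the falls of drug and steroid enzymes they were -2.52 for Cyp2c12, -2.26 for Ces1d, -2.02 for Dhrs7l1, -2.01 for Sult1e1, -1.78 for Cyp2e1, -1.69 for Akr1c1, -1.66 for Sult2a6 and -1.07 for AKR1C3l1. For bile and fatty acid genes they were -1.27 for Cyp7a1, -1.18 for Slc10a1, -1.56 for Fabp1, -1.42 for Cyp4a1 and -0.75 for Bbox1. The others were -2.16 for Olr59, -1.95 for Otc, -1.31 for Hrg and -1.14 for Klkb1. The genes were chosen for their size at 48 h, which favours larger values at that time.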

How the results depend on the processing

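Of 21226 probe sets 5702 changed, and none of 413 called genes named by rule changed direction under the alternatives run. Hnf4a, not called at 0.03, was called lower at -0.17 as the mean of its probe sets. With the replicate block, which treats same-numbered arrays as sets, 5933 changed, and 607 by at least 2-fold, and the block ended 2 of the 413 calls. Leaving out 1 array at a time gave 5206 to 5473 changed, 2777 to 2947 higher, 2429 to 2530 lower and 553 to 622 changed at least 2-fold. At least 2-fold changes numbered 599, and 394 with probe sets kept above the 60th percentile of their array, where fewer dim probe sets are tested. Centring arrays on their medians moved the median change from 0.009 to 0.05 and the share of higher calls among changed probe sets from 53.7% to 61.6%, and ended 31 of the 413 calls. Quantile normalization gave 53.6% higher and ended 5 calls, and a fit of the 10 arrays alone ended 20. Leaving out 1 array ended 15 to 26 calls. Dim signal limits what could be called: the median SE was 0.3 in the dimmest 25% of genes and 0.06 in the brightest 25%. Protein, cell number and lipid content were not measured.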
